A study of Homo sapiens with 4 samples.

Results

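The replication licensing genes measured here were *MCM2*, *MCM3*, *MCM4*, *MCM5*, *MCM6* and *MCM7*, which encode the subunits of the replicative helicase, and *CDC6*, *CDT1*, *MCM10* and *CDC45*, which encode proteins that load or activate it. Their probes were found by symbol, a rule that uses no measured value, with *CDC45* under its older array name *CDC45L*. The set itself was chosen with earlier results of these data known. The 10 genes were read by 11 of the 33096 gene probes, against 27903 gene identifiers on the whole array. Of the 11 probes, 10 passed the filter on dim signals and 1, the second probe of *CDT1*, did not.

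The cells were LN229, an established human glioblastoma line that is itself 1 cell line and so 1 genetic background. In the *SOX2* knockdown group they were transfected with siRNA, a short duplex RNA that marks transcripts of like sequence for cleavage, against *SOX2*, which encodes a transcription factor of stem and neural progenitor cells. In the mock knockdown group they received a control siRNA without a target. The study's methods give 100 nM siRNA and harvest at 72 hours for the *SOX2* transfections, and name 2 different *SOX2* siRNAs without saying which was used on the arrays. Each group had 2 arrays, described in the methods as biological replicates with transfections of their own, and each array held labelled RNA of 1 sample. The comparison asks which transcripts of the replication machinery differ when SOX2 is depleted.

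Before a cell copies its DNA, every origin of replication is licensed. The origin recognition complex marks the origin, CDC6 and CDT1 join it, and together they load the ring-shaped MCM2-7 hexamer around the DNA in an inactive form. At the onset of S phase the kinases CDC7-DBF4 and cyclin-CDK bring in CDC45 and the GINS complex, which turn the ring into the active helicase, with MCM10 needed for the step to unwinding. Geminin and the CUL4-DDB1-DTL and SKP2 ubiquitin ligases then remove or block CDT1, so that no origin is used again in the same cycle. Transcription of most of these genes is driven by E2F factors in late G1, which makes their RNA a common measure of how much of a culture is cycling, and MCM proteins are used as proliferation markers in glioma. In RNA of a whole culture, a different share of cells in S phase and a different amount of RNA per cell cannot be told apart.

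All values below are signals divided by the 75th percentile of the gene probes of the same array, so that a value of 1 is the signal of a probe at that percentile. A probe's signal also depends on its own sequence, so values are compared between arrays and not between probes. The array's signal-to-noise ratio (S/N) was over 3 for between 63.5% and 68.9% of the gene probes on the 4 arrays. For the 10 licensing probes it lay between 7.57 and 126, so each was well above background on all 4 arrays. One label field names SW620, a colon cancer line, while the others name LN229. Of 9 probes for mesenchymal and glial markers, 7 had S/N over 3 on all 4 arrays, among them *VIM*, *CD44*, *NES* and the targeted *SOX2*. *FN1* did on 2 arrays and *COL1A2* on none. Of 12 probes for colon markers, 3 had S/N over 3 on all 4 arrays (1 probe each of *VIL1*, *KRT8* and *ASCL2*). *CDX1* and *CDX2* did on 2 arrays, and *EPCAM*, *CEACAM5* and another *KRT8* probe on 1. *CDH1*, *LGR5*, *KRT20* and another *VIL1* probe did on none.

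The targeted gene was lower on both knockdown arrays. *SOX2* had a signal of 0.467 and 0.701 in mock and 0.209 and 0.149 after knockdown, so the groups did not overlap. The ratio of the means was 0.307, with a log2 change of -1.69 (SE 0.28, n = 2 per group, 95% interval -2.45 to -0.94). The adjusted p in limma, a linear model with a spread estimate shared across probes, was 0.117. Adjustment was by Benjamini-Hochberg over all 21256 probes compared. No probe on the array reached an adjusted p of 0.05 in limma (0%), 241 (1.13%) had one under 0.1, and the smallest was 0.0582.

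Promoter sequence is given for the genes whose values differed most in each direction below, and for *MCM7*. Its estimated change went the other way from that of its partner subunit *MCM6*, a difference that was not tested. RefSeq windows (GRCh38.p14, 250 bases before to 50 after an annotated start) were held for 8 of the 10 genes, with 12 windows in all. Searched were the E2F letters TTTCCCGC, TTTGGCGC, TTTCGCGC and TTTGCCGC, the CCAAT box (CCAAT) and the SOX core letters CATTGT and CTTTGT, each on both strands. The stretches below are the 200 bases directly before the start, read 5′ to 3′ on the strand of the gene. E2F and CCAAT letters are in capitals where the match lies wholly before the start. A CCAAT match of *MCM7* at bases -2 to 3 crosses the start and is not marked.
MCM6, chr2:135876444-135876643, minus strand: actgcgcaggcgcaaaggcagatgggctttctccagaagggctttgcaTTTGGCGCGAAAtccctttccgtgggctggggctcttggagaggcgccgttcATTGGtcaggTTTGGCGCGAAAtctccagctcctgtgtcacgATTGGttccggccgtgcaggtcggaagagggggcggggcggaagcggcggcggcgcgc
CDC6, chr17:40287679-40287878, plus strand: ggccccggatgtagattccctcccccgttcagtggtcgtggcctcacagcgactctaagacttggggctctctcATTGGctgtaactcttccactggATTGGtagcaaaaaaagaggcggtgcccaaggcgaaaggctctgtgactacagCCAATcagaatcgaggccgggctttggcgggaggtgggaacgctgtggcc
MCM7, chr7:100101398-100101597, minus strand, the start farthest upstream: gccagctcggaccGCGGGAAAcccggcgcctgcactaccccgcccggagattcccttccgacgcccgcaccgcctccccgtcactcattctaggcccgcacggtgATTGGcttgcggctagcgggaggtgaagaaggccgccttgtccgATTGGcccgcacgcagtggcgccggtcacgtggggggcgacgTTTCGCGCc

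In *MCM6* the E2F letters occur as 2 pairs, the first from base -152 to -141 and the second from -90 to -79 before the start. In each pair a match on the strand of the gene overlaps one on the opposite strand, and so 4 matches stand for 2 places. *CDC6* has 3 CCAAT boxes in the stretch shown, and its E2F match lies past the start, at bases 8 to 15. The *MCM7* window has E2F letters at -187 to -180 and at -9 to -2. Over all 8 genes, 6 held E2F letters in at least 1 window (*MCM2*, *MCM3*, *MCM6*, *MCM7*, *CDC6* and *CDT1*). By window this was 6 of 12, beside 3.315% of the 35116 promoter windows in RefSeq's table. CCAAT letters were in 9 of 12 windows, beside 34.61% of all. The SOX core letters were in 3 of 12 windows (of *MCM7*, *MCM10* and *CDC45*), beside 24.47% of all. A match here is a run of letters, not a measured binding site, and some windows of 1 gene overlap.

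**Figure D1:**
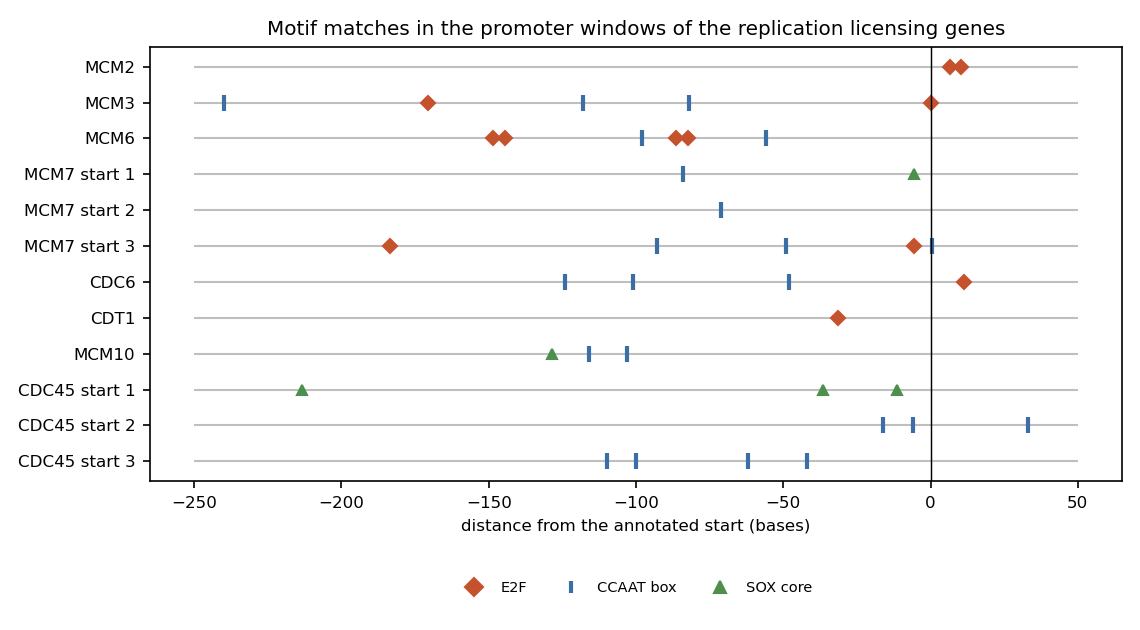
Position of motif matches in the 12 promoter windows of 8 replication licensing genes, as distance in bases from the annotated start (vertical line). Each row is 1 window, diamonds are E2F letters, bars CCAAT letters and triangles SOX core letters. E2F matches are in 6 of 12 windows, and those of *MCM6* form 2 close pairs.

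The estimated changes of the helicase subunits after *SOX2* knockdown went in both directions, and differences between subunits were not tested. *MCM6* was 30.2% lower and *MCM7* 14.1% higher, *MCM5* was 14.1% lower, and *MCM2*, *MCM3* and *MCM4* lay within 10% of the mock mean. None of the 6 passed the adjusted test. Their median log2 change was -0.03, beside -0.00 over all probes compared.

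*MCM6* (probe 185612) encodes the subunit that lies between MCM2 and MCM4 in the ring. Its signal was 2.17 and 2.25 in mock and 1.69 and 1.40 after knockdown. Neither knockdown array reached the level of a mock array, and the gap between the groups was larger than the gap within either. The log2 change was -0.52 (SE 0.15, n = 2 per group), with a 95% interval of -0.93 to -0.12, a limma p of 0.0224 and an adjusted p of 0.215. An unadjusted p under 0.05 in the lower direction was found for 9.16% of all probes compared. Across 22 other ways to process the arrays the log2 change of *MCM6* ran from -0.66 to -0.35. Of these, other floors, filters, variance models and pairings could not change it. With every array kept, its limma p was not under 0.05 with median scaling, without further scaling or with the authors' processed values. Nor was it with normexp background correction or with the replicate number as a block. With any single array left out, the log2 change of *MCM6* ran from -0.66 to -0.39.

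*MCM7* (probe 164271) encodes a subunit of the MCM4-6-7 core that carries helicase activity. It gave 15.7 and 14.5 in mock and 17.5 and 17.1 after knockdown. Both knockdown arrays were above both mock arrays, with a log2 change of 0.19 (SE 0.13) and an adjusted p in limma of 0.555. Its change exceeded that of *MCM6* by 0.72 on the log2 scale. This pair was picked after the values were seen, and the difference was not tested.

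*MCM5* (probe 166975), the neighbour of MCM2 at the gate through which DNA enters the ring, had signals of 1.25 and 1.56 in mock and 1.18 and 1.23 after knockdown. Both knockdown values were lower, but the lower mock value lay closer to them than to the other mock value. The log2 change was -0.21 (SE 0.16, adjusted p in limma 0.620), and it was -0.37 and -0.05 without the first and the second mock array. *MCM4* (probe 115589), another core subunit, gave 1.71 and 1.65 in mock and 1.72 and 1.83 after knockdown. The knockdown arrays were both above, one of them only just, and the log2 change was 0.08 (SE 0.13, adjusted p in limma 0.849).

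*MCM2* (probe 125377) encodes the subunit whose tail also binds histones and is a main substrate of CDC7. Its signal was 7.37 and 5.97 in mock and 6.86 and 7.15 after knockdown, so both knockdown arrays lay between the mock arrays. *MCM3* (probe 209973), the partner of MCM5 in the ring, gave 1.90 and 2.28 in mock and 2.05 and 1.76 after knockdown, and the groups overlapped. Their log2 changes were 0.08 (SE 0.16) and -0.13 (SE 0.17), with adjusted p in limma of 0.891 and 0.803. The direction of *MCM2* and of *MCM3* turned when the second mock array was left out, to -0.07 and 0.00.

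Among the loading and activation factors, *CDC6*, *CDT1* and *CDC45* were each higher on both knockdown arrays than on both mock arrays, by 34.4%, 17.2% and 22.4%. The groups overlapped for *MCM10*. Of all probes compared, 21.2% were higher on both knockdown arrays. The 4 probes had a median log2 change of 0.26. None passed the adjusted test, which no probe on the array passed.

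*CDC6* (probe 130465) encodes the ATPase that joins the origin recognition complex and takes part in loading the MCM ring. Its signal was 0.881 and 0.920 in mock and 1.27 and 1.15 after knockdown. The groups were separated by more than the arrays of either group differed. The log2 change was 0.42 (SE 0.13, n = 2 per group), with a 95% interval of 0.07 to 0.78, a limma p of 0.0284 and an adjusted p of 0.234. An unadjusted p under 0.05 in the higher direction was found for 7.9% of all probes compared. Over the 22 alternatives the log2 change of *CDC6* ran from 0.36 to 0.50, though other floors, filters, variance models and pairings could not change it. With every array kept, its limma p was not under 0.05 with median scaling, without further scaling or with the authors' processed values. Nor was it with the replicate number as a block. With any single array left out, the log2 change of *CDC6* ran from 0.36 to 0.49.

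*CDT1* encodes the partner of CDC6 in loading, and the factor that geminin blocks. Its brighter probe (196072) gave 0.710 and 0.802 in mock and 0.920 and 0.852 after knockdown. The knockdown arrays were both higher, with a log2 change of 0.23 (SE 0.14) and an adjusted p in limma of 0.510. The groups overlapped with median scaling, without further scaling and with the authors' processed values. The other *CDT1* probe (160015) had S/N at or under 3 on all 4 arrays and gives no fold.

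*CDC45* (probe 208272) encodes the factor that joins the loaded ring when an origin fires. It showed the closest replicates of the 10, with 1.02 on each mock array and 1.24 and 1.26 on the knockdown arrays. The groups did not overlap. The log2 change was 0.29 (SE 0.12, 95% interval -0.04 to 0.62), with a limma p of 0.0702 and an adjusted p of 0.341. It lay between 0.26 and 0.31 under all 22 alternatives, of which other floors, filters, variance models and pairings could not change it.

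*MCM10* (probe 209427) encodes a factor that is no part of the ring despite its name, and that acts with CDC45 when DNA is first unwound. Its signal was 0.269 and 0.219 in mock and 0.229 and 0.257 after knockdown. The groups overlapped, and the log2 change of -0.00 (SE 0.17, adjusted p in limma 0.996) had a 95% interval of -0.45 to 0.44. With normexp background correction it was -0.31, with both knockdown arrays lower and a limma p of 0.0717.

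**Figure D2:**
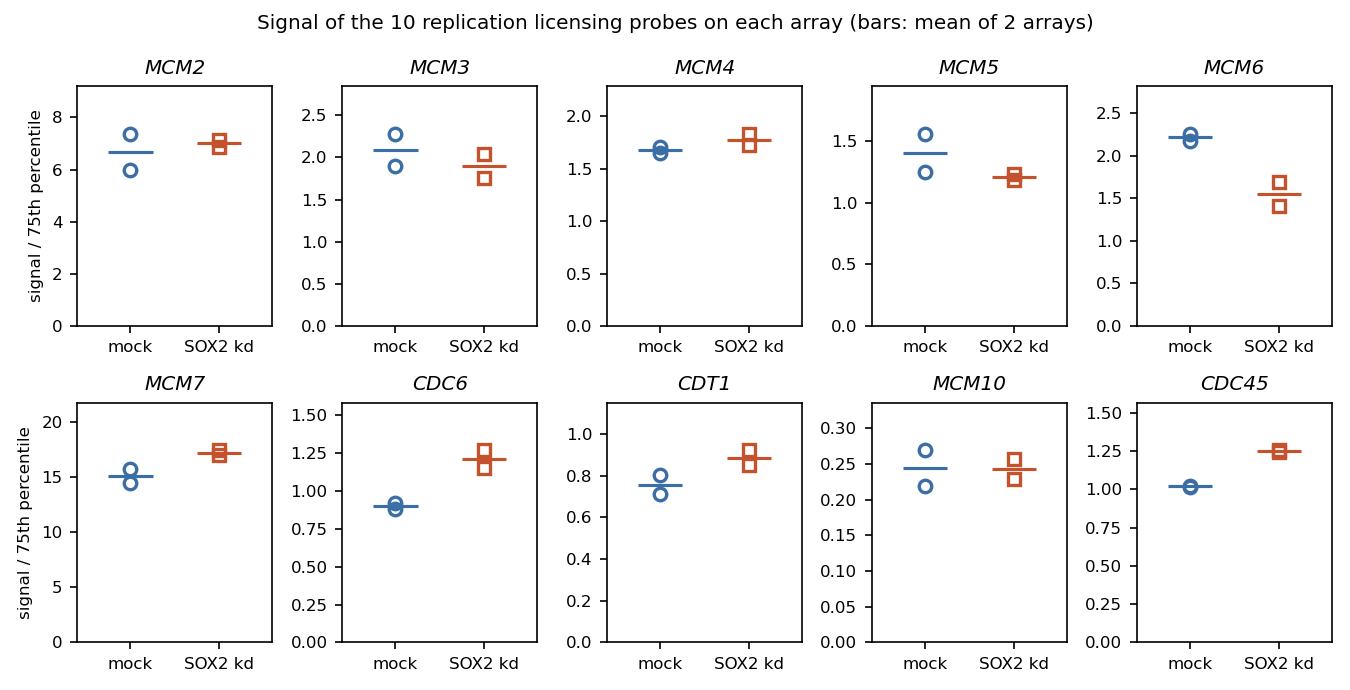
Signal of each of the 10 licensing probes on the 4 arrays, as a share of the 75th percentile of its array (vertical axes linear from 0, one scale per gene). Circles are the 2 mock arrays, squares the 2 *SOX2* knockdown arrays and bars the mean of each pair. The pairs are apart for *MCM6*, lower after knockdown, and for *CDC6* and *CDC45*, higher after knockdown, while those of *MCM2*, *MCM3* and *MCM10* overlap.

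Taken over the 10 probes, 0 were past the study's criterion of a 2-fold change of the means, in either direction. Over all probes 1.57% were past it in the higher direction and 1.04% in the lower. Both knockdown arrays were above both mock arrays for 5 of the 10 (*MCM4*, *MCM7*, *CDC6*, *CDT1* and *CDC45*), beside 21.2% of all probes compared. They were below for 2 of the 10 (*MCM5* and *MCM6*), beside 25.8% of all. In limma 0 of the 10 had an adjusted p under 0.05 or under 0.1, beside 0% and 1.13% of all probes compared. At an unadjusted limma p under 0.05 there were 2, *CDC6* higher and *MCM6* lower, beside 7.9% of all probes higher and 9.16% lower. The median absolute log2 change of the 10 was 0.202, beside 0.191 over all probes compared, and their median log2 change was 0.08. That median was 0.14 and 0.03 without the first and the second mock array, and 0.12 and 0.04 without the first and the second knockdown array.

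With the main scaling and all 4 arrays, all 10 of the 95% intervals lay within a 2-fold change each way. The number was 9 with median scaling, without further scaling and with the authors' processed values, 8 with the replicate number as a block, and 8 or 9 with 1 array left out. The lowest end was -1.12 on the log2 scale with median scaling and -1.32 without the first knockdown array. In the main comparison the lowest end belonged to *MCM6*, at a ratio of 0.524, and the highest to *CDC6*, at a ratio of 1.72. The interval held 0 for 8 of the 10. An interval that holds 0 does not show equal levels, and for *MCM2* it still ran from a ratio of 0.784 to 1.42.

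**Figure D3:**
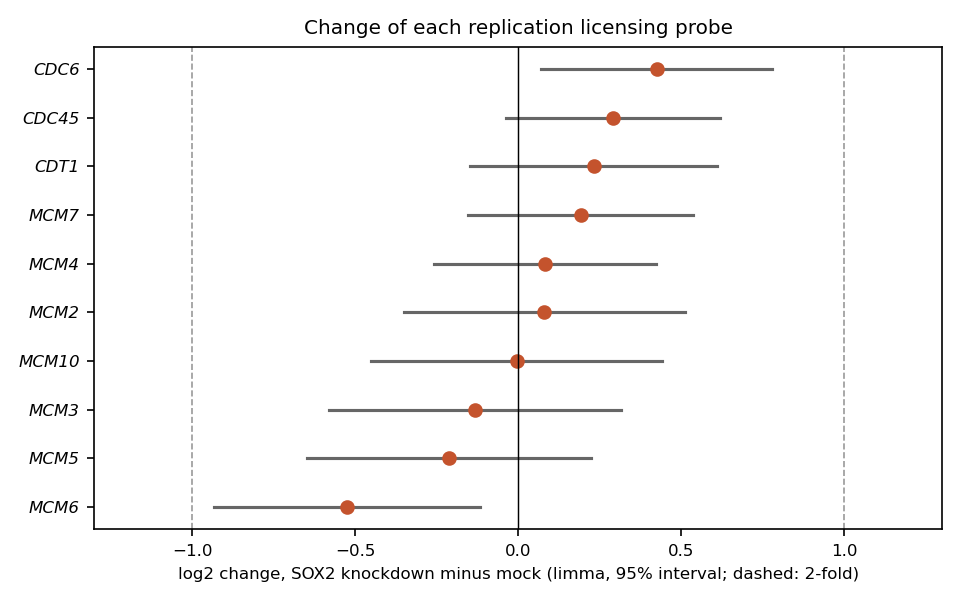
Log2 change of each licensing probe, *SOX2* knockdown minus mock, from limma (points), with its 95% interval (lines) over 2 arrays per group. Dashed lines mark a 2-fold change. With the main scaling all 10 intervals lie inside the dashed lines, and those of *CDC6* and *MCM6* lie to either side of 0.

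The other genes of the pathway were taken from 8 lists of 85 genes, chosen with earlier results of these data known. Of these genes 82 were on the array with 102 probes, and 94 probes passed the filter. Every probe of a gene was counted. Both knockdown arrays were higher for 35 of the 94 and lower for 16, which is 37.2% and 17.0%, beside 21.2% and 25.8% of all probes compared. Without further scaling of the arrays the counts were 21 and 9. Over all 21256 probes they were 3114 and 4268 there, in place of 4508 and 5489. At an unadjusted limma p under 0.05 there were 12 higher and 1 lower (12.8% and 1.06%, beside 7.9% and 9.16% of all probes). None had an adjusted p under 0.05, and no probe on the array did. The 12 became 3 with median scaling, without further scaling and with the authors' table. Of all probes compared, 1144, 1147 and 1184 were higher at that p there, in place of 1679. In those settings limma gave every probe 1 common standard error. The median log2 change was 0.05. It was 0.05 and 0.07 without the first and the second mock array, and 0.04 and 0.07 without the first and the second knockdown array.

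Of the origin recognition complex, which loads the ring, 4 of 6 probes were higher on both knockdown arrays and 1 lower. Of all probes compared, these shares were 21.2% and 25.8%. *ORC6* gave 0.323 and 0.329 in mock and 0.453 and 0.406 after knockdown, a log2 change of 0.40 (SE 0.13, limma p 0.0367, adjusted p 0.257). *ORC1*, the subunit whose level follows the cell cycle, gave 0.0858 and 0.0698 in mock and 0.105 and 0.104 after knockdown, a log2 change of 0.44 (SE 0.16, limma p 0.0458, adjusted p 0.282). In both the groups were separated. *ORC3* was the member that was lower, by 10.2% (log2 change -0.15, SE 0.12).

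The genes that keep CDT1 in check gave values in both directions. *GMNN*, which encodes geminin, was 19.9% higher, with 2.07 and 2.48 in mock and 2.89 and 2.57 after knockdown (log2 change 0.26, SE 0.16, adjusted p in limma 0.510). *DTL*, the substrate receptor of the CUL4 ligase, was 11.6% higher on separated groups, and *DDB1*, the adaptor of the same ligase, 18.2% lower. *CKS1B*, the cofactor of SKP2, had 4 probes that differed in what they showed. Of these, 3 were higher on both knockdown arrays, with log2 changes of 0.50, 0.42 and 0.37, and the dimmest gave -0.03 with overlapping groups. The largest had a limma p of 0.0143 and an adjusted p of 0.183.

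Among the factors that activate the loaded ring, 5 of 11 probes were higher on both knockdown arrays with an unadjusted limma p under 0.05. None was lower at that level. At that p, 7.9% of all probes compared were higher and 9.16% lower. The 5 were both probes of *GINS4*, both of *DBF4* and the brighter of *TICRR*, so repeated probes of a gene add to the count. *GINS4*, a subunit of the GINS complex that joins CDC45, was read by 2 probes. The first gave 0.210 and 0.262 in mock and 0.334 and 0.339 after knockdown, and the second 0.257 and 0.329 and then 0.435 and 0.431. Their log2 changes were 0.52 (SE 0.16) and 0.57 (SE 0.17), with adjusted p in limma of 0.234 and 0.219. *DBF4*, the regulatory subunit of the CDC7 kinase, had 2 probes that both gave a log2 change of 0.39 (SE 0.12), whereas the 2 probes of *CDC7* itself gave 0.02 and -0.13. *TICRR*, the treslin gene needed to recruit CDC45, gave a log2 change of 0.44 (SE 0.14, adjusted p in limma 0.236) on its brighter probe. *TOPBP1*, its partner, gave -0.32 (SE 0.24) with overlapping groups.

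The MCM relatives outside the ring differed little or were dim. *MCM8*, part of a helicase for recombination repair, gave a log2 change of 0.20 (SE 0.13) and *MCMBP*, which binds MCM subunits off the DNA, -0.12 (SE 0.13). *MCM9*, the partner of MCM8, had 2 probes of opposite sign, -0.28 (SE 0.37) and 1.23 (SE 0.66), the latter at the floor of 0.01 on 1 mock array. That probe passed the filter only through the knockdown group, where it is high. Its place among the higher probes therefore follows in part from the filter.

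The replication fork list (polymerases, clamp, clamp loader, primase and ligase) stood near 0, with a median log2 change of -0.03 over 31 probes. Of these, 7 were higher on both knockdown arrays and 6 lower, beside 21.2% and 25.8% of all probes compared. The other 18 overlapped, and 0 had an unadjusted limma p under 0.05. The largest changes were of *POLE* (-0.37, SE 0.28, overlapping groups), *CHAF1A*, a histone chaperone at the fork (0.35, SE 0.13, both knockdown arrays higher), and *LIG1* (-0.27, SE 0.15, both lower).

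For the supply of deoxynucleotides 6 of 11 probes were higher on both knockdown arrays and 1 lower, beside 21.2% and 25.8% of all probes compared. *TK1*, *RRM2* and *TYMS*, which encode thymidine kinase, a ribonucleotide reductase subunit and thymidylate synthase, gave log2 changes of 0.40 (SE 0.15), 0.32 (SE 0.12) and 0.31 (SE 0.13). These 3 probes had separated groups and adjusted p in limma from 0.305 to 0.342. A second *TK1* probe gave 0.20 (SE 0.13), also on separated groups.

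Of the G1/S cyclins and kinases, *CCNA2* had the largest change. This gene of cyclin A2, the partner of CDK2 in S phase, gave 1.17 and 1.07 in mock and 1.78 and 1.71 after knockdown. It was 55.4% higher, with a log2 change of 0.64 (SE 0.13), a limma p of 0.0065 and an adjusted p of 0.141. *CDKN1B*, which encodes the CDK inhibitor p27, was also higher, with 0.526 and 0.714 in mock and 0.873 and 0.894 after knockdown (log2 change 0.53, SE 0.19, adjusted p in limma 0.283). *CDC25A* gave 0.25 (SE 0.21) with overlapping groups.

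The E2F list held the lowest and the highest log2 change of all pathway probes. *TFDP2*, a dimerisation partner of E2F, was lower on both of its probes, with log2 changes of -0.54 (SE 0.16, limma p 0.0235) and -0.39 (SE 0.16). *E2F6*, a repressor of the family, gave 0.36 (SE 0.17). *E2F7*, another repressor and named after its value was seen, was the 1 pathway probe past 2-fold. It had S/N over 3 on the knockdown arrays only, with 0.0776 and 0.0567 in mock and 0.153 and 0.178 after knockdown, a ratio of the means of 2.46 (log2 change 1.31, SE 0.21, adjusted p in limma 0.111). Its mock signals were not well above background, so the ratio is loosely known. It passed the filter only through the group where it is high, so its being counted among the higher probes follows in part from the filter. With normexp background correction its log2 change was 0.18, and no pathway probe was past 2-fold.

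**Figure D4:**
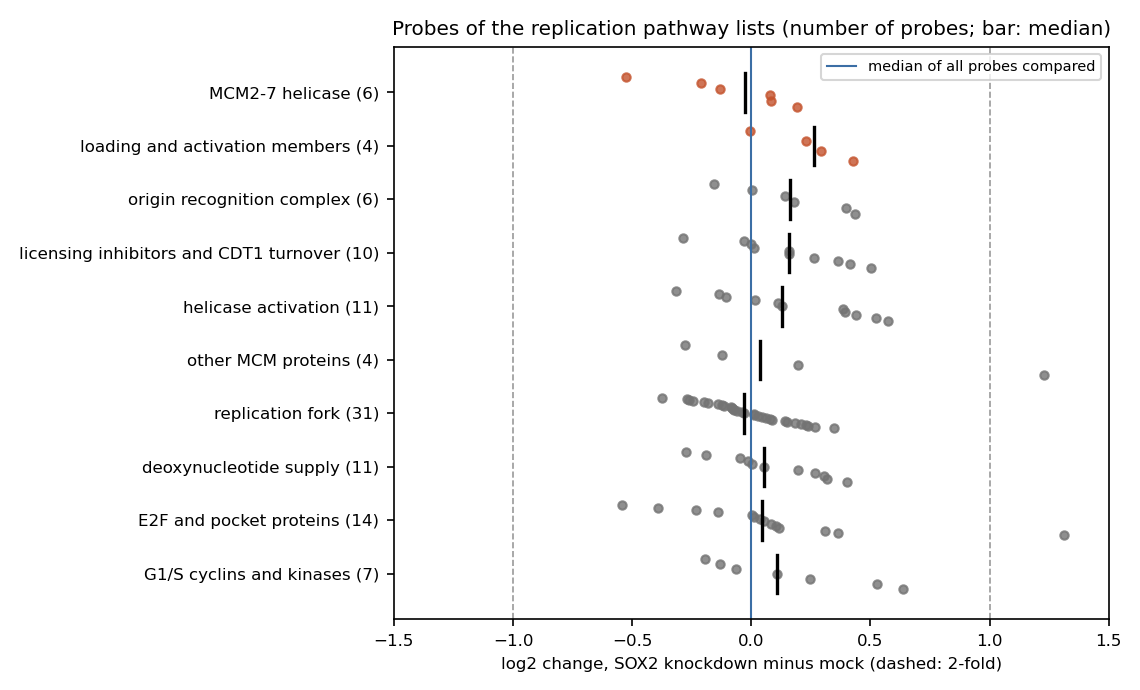
Log2 change of every probe compared in the 2 groups of licensing genes (red) and the 8 other pathway lists (grey), *SOX2* knockdown minus mock, with the number of probes after each name. Black bars are list medians, the blue line is the median of all probes compared and dashed lines mark 2-fold. The loading and activation genes have a median of 0.26 and the MCM2-7 ring -0.03. On this scale 2 probes lie past the dashed line, of *E2F7* and *MCM9*, and the *MCM9* ratio of means was 1.91.

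**Figure D5:**
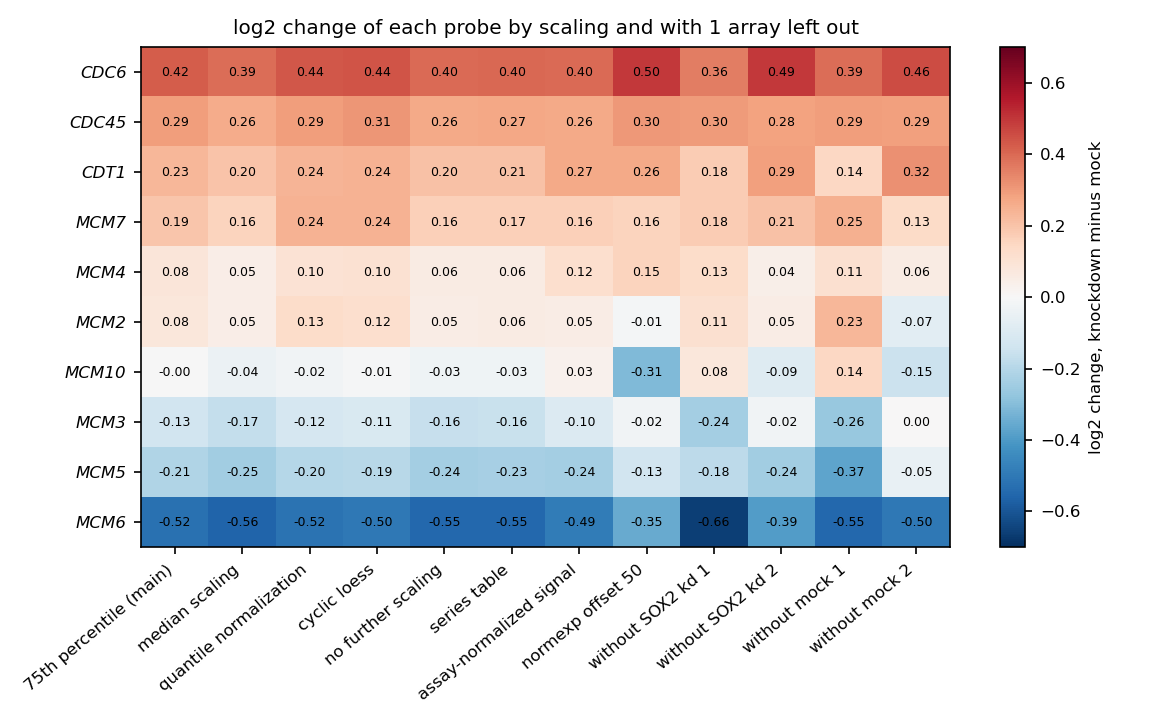
Log2 change of each licensing probe (rows) with the main scaling, under 7 other scalings or sources of values and with each of the 4 arrays left out (columns), printed in each cell and coloured from blue (lower after knockdown) to red (higher). *MCM5* and *MCM6* are negative and *CDC6*, *CDC45*, *CDT1*, *MCM7* and *MCM4* are positive in every column, whereas the sign of *MCM2*, *MCM3* and *MCM10* turns in at least 1.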

How the data were processed

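Total RNA of LN229 cells, transfected with *SOX2* siRNA or control siRNA, was labelled with biotin and hybridised to 1-colour chemiluminescent oligonucleotide arrays. Groups came from the source names and replicate numbers from the titles. The deposited scanner files hold, per feature, signal intensities on a linear scale, among them a signal the scanner software had normalized, and per the file headers a signal-to-noise score (S/N). A deposited table of the authors' own processed values holds linear ratios per probe, each the signal over the probe's median across arrays or over a fixed minimum. That rule returned 100% of the table within 1%, and the table served as an alternative. The median of each of its columns was 0.102, and its values are neither log-scaled nor turned in direction.

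Control features were dropped, and so were 210 probes flagged at 5000 or above on at least 1 array. Normalized signals were expressed as a share of the array's 75th percentile (6.06 and 6.88 for mock, 6.74 and 5.96 for knockdown), floored at 0.01 and taken to log2. A probe was kept if either group had S/N over 3 on its 2 arrays, which left 21256 and dropped 11630. The study averaged probes by gene identifier. Here single probes were used, with averaging as an alternative. limma 3.58.1 (lmFit and eBayes, two-sided, no block) in R 4.3.3 gave p-values with Benjamini-Hochberg adjustment over all 21256 probes. It was also run on simulated data made with the means and spreads of these probes. The number of arrays, 2 per group, limits the precision, and p-values measure the spread between those arrays. No slide or scan batch held more than 1 array.

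Array symbols were matched through RefSeq's current symbols and unambiguous synonyms, and *GINS1*, *GINS3* and *TIPIN* had no match. The licensing genes, the pathway lists and the marker lists were chosen with earlier results of these data known. Named were *SOX2*, every licensing probe, genes of the 4 lists closest to licensing, and the 3 probes with the largest absolute log2 change in each other list. Other genes are said to be chosen after their values were seen. Of these, *E2F7* is the only one. Alternatives covered scaling, source of values, background, floor, filters, averaging, variance model, pairing and leaving out each array. Same-numbered arrays did not deviate together (correlation of their deviations -0.484 over 21256 probes), so the numbers were not used to pair them. A genome build for the probes is not given in the sources used here.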

Additional observations from a re-analysis of the deposited data

How the results depend on the processing

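No licensing probe was past 2-fold, or under an adjusted p of 0.05 in limma, in any alternative run, cutoffs of 1.5-fold and 3-fold included for the first. *MCM4*, *MCM5*, *MCM6*, *MCM7*, *CDC6*, *CDT1* and *CDC45* kept their direction in all 22 alternatives. Many of these could not turn a direction. Other floors, S/N filters, variance models and pairings left the log2 changes as they were. Median scaling, no further scaling and the authors' table each moved them all by a common amount. *MCM2* turned to -0.0130 with normexp background correction and to -0.0723 without the second mock array (range with 1 array left out -0.0723 to 0.232). *MCM3* turned to 0.000404 without that array (range -0.264 to 0.000404). *MCM10* turned to 0.0318 on the assay-normalized signal, and with 1 array left out ranged from -0.151 to 0.142. It was -0.308 with normexp. With 1 array left out *MCM4* ranged from 0.04 to 0.13, *MCM5* from -0.37 to -0.05 and *CDT1* from 0.14 to 0.32.

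The number of licensing probes with separated groups went from 7 to 4 with median scaling, with no further scaling and with the authors' table. The groups of *MCM4*, *MCM5* and *CDT1* overlapped there. Over all 21256 probes, those with overlapping groups went from 11259 to 13429, 13874 and 13762. The number of licensing probes with an unadjusted limma p under 0.05 went from 2 to 0 in those 3 settings and to 1 with normexp. It was 0 whichever array was left out (range 0 to 0). In those 3 settings limma gave all 21256 probes 1 common standard error (0.288, 0.291 and 0.288 on the log2 scale), against 19580 distinct ones in the main comparison. There *SOX2* passed an adjusted p of 0.05, with log2 changes of -1.73, -1.72 and -1.72, and so did 826, 776 and 758 of all probes, against 0. *E2F7* passed in all 3 of these and 1 *MCM9* probe in the first pair, though the filter kept both only through the knockdown group. A variance trend gave 287 such probes, array weights 9 and S/N over 3 on all arrays 5, none of them among the licensing or other pathway probes. The *E2F7* log2 change was 0.18 with normexp, where 0 pathway probes were past 2-fold. The median of the helicase activation list, 0.13, went to 0.26 with normexp and from 0.03 to 0.32 with 1 array left out.

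With the replicate number as a block, 0 licensing probes had an unadjusted limma p under 0.05, and the pathway lists had 2 higher in place of 12. Over all 21256 probes, 939 were higher and 966 lower at that p, in place of 1679 and 1947. With the numbers crossed, a pairing chosen after seeing the data, 2 licensing probes were higher and 1 lower at that p. Of the other pathway probes 16 were higher and 1 lower, and of all 21256 probes 2649 were higher and 2869 lower. With 2 arrays per group, differences smaller than the 95% intervals could not be resolved.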
